A study of Mus musculus with 6 samples.

Results

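Voltage-gated sodium channels, voltage-gated calcium channels, the HCN channels and the sodium leak channel were examined in embryonic motoneurons captured from both sides of the cervical spinal cord. Members were taken by gene symbol, as every probe set assigned to 1 gene only and named Scn with a number and a final a or b, Cacna, Cacnb, Cacng, Hcn or Nalcn. This gave 89 probe sets of 38 genes, out of 34945 probe sets that name 1 of 18193 genes, and genes of these families with no probe set of their own in the annotation were not analysed here. All 6 pools came from 3 littermate mouse embryos, numbered 1 to 3, that carried the HB9::GFP transgene, in which the promoter of the motoneuron factor HB9 (Mnx1) drives green fluorescent protein. The labels give embryonic stage E11.5, and each embryo gave 1 left and 1 right pool of GFP+ cervical regions cut by laser from the same sections, so that the groups are 3 left and 3 right pools with no other genotype or treatment. A captured region is wider than a single cell type, the embryos come from 1 litter, and in such pools fewer cells of a type and less RNA per cell cannot be told apart. The amplified RNA of each pool was read on 1 Affymetrix whole-genome mouse array, and the study asked which genes differ between the sides before the phrenic nerve, which drives the diaphragm, branches differently on the left and right.

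Sodium channels open on depolarization and carry the upstroke of the action potential, and their alpha subunits form the pore whereas the beta subunits, which are also adhesion proteins, adjust gating and position. Calcium channels turn depolarization into calcium entry: the alpha1 subunit is the pore, the alpha2delta and beta subunits bring it to the membrane, and of the gamma family several members mainly serve AMPA receptors. HCN channels open on hyperpolarization and pace repetitive firing, and NALCN leaks sodium at rest, which is known to matter for rhythmic breathing.

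The deposited values are signals on a linear scale, brought by the array software to a common level. Control probe sets aside, 21853 of 45037 probe sets reached a signal of 200 in at least 1 pool, the limit of the study's methods, and were tested. Of the 89 channel probe sets, 56 of 27 genes reached it and 33 did not. All 9 motoneuron marker genes were tested and 8 of them were at or above 200 in all 6 pools, with summed signals between 24997 and 42740. The right pool of embryo 1 stood apart: its summed signal over 19 skeletal muscle markers was 7474, against 901.6 to 1120 in the other pools, and over 15 mesenchyme markers it was 18889, against 1354 to 2986. Of these lists, 0 muscle and 3 mesenchyme genes were at or above 200 in all 6 pools. Roof and floor plate and mesenchyme markers also leaned to the right outside that pool. The 7 tested roof and floor plate probe sets had a median log2 ratio of right to left of 1.05, all 7 with a mean above 0. It was 0.77 without embryo 1. The 15 of mesenchyme had a median of 1.51, and 0.41 without embryo 1, with 1.17 in embryo 2 and 0.01 in embryo 3. Other lists did not share this lean. Without embryo 1 the median was -0.45 for heart and smooth muscle and -0.23 for erythroid cells and for endothelium. It was -0.19 for progenitors, -0.08 for sensory neurons and -0.00 for interneurons. For skeletal muscle it was 0.16, with -0.51 in embryo 2 and -0.10 in embryo 3. The part of these cells in the channel ratios was not tested. Where a channel ratio of 0.1 or more in size turned or moved by over 1.5 times without embryo 1, that value is given too.

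With each gene read by its brightest probe set, 19 of the 38 genes were at or above 200 in all 6 pools, 8 in some pools and 11 in none. The first group holds at least 1 member of every class but HCN. Signals of different probe sets also reflect how well each binds, so the order that follows describes the array and not amounts of RNA. Where 2 or more probe sets measure a gene, as for 27 genes, the brightest exceeded the dimmest by a median of 4.94-fold and by up to 117-fold (Scn8a), and a gene below 200 is therefore only not above the limit with the probe sets at hand.

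**Figure D1:**
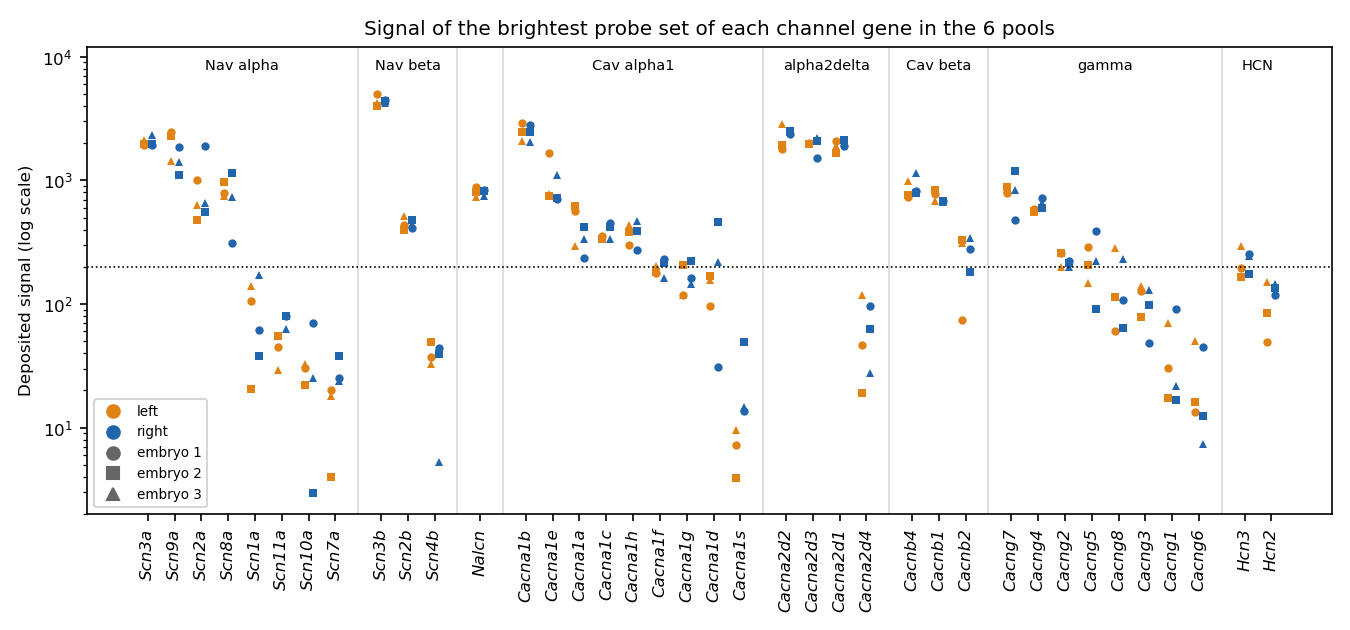
Deposited signal (log scale) of the brightest probe set of each of the 38 channel genes, grouped by class and ordered by mean log2 signal within the class. Each gene has 6 points, 3 left (orange) and 3 right (blue), with a symbol for each embryo, and the dotted line is the limit of 200. The left and right points overlap for the bright genes except Cacng4, Scn3b is the brightest with 3984 to 4981, and the points scatter over a wide range below the line.

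Of the pore-forming sodium channels, 4 of 8 genes were at or above 200 in all pools. Scn3a (Nav1.3), the alpha subunit typical of embryonic neurons, had signals in embryos 1, 2 and 3 of 1944, 1956 and 2142 (left) against 1937, 1959 and 2334 (right) (1439204_at), and values below keep this order of embryos. The sides overlapped, and the log2 ratio of right to left (R/L) was 0.04 ± 0.07 (SD, n = 3 embryos), with a 95% interval from limma of -0.30 to 0.38. Scn9a (Nav1.7), best known from sensory and sympathetic neurons, was next at a mean signal of 1762, followed by Scn2a (Nav1.2), typical of immature axons, at 872 and Scn8a (Nav1.6), the main adult node channel, at 782. Scn3a and Scn9a overlapped in range, as did Scn2a and Scn8a.

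The other 4 alpha subunit genes did not reach 200 with any probe set. Over the 6 pools the maximum was 172 for Scn1a (Nav1.1), 80.7 for Scn11a (Nav1.9) and 69.8 for Scn10a (Nav1.8), both known from pain-sensing neurons, and 42.5 for Scn7a, a sodium sensor. Sensory neuron markers were few on this array, with 4 genes measured, of which Pou4f1 alone was tested.

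A group of 5 of these genes lies on chromosome 2 (GRCm38.p6, RefSeq), in the order Scn3a (65457118 to 65567591), Scn2a (65620764 to 65767447), Scn1a (66270781 to 66440837), Scn9a (66480080 to 66635114) and Scn7a (66673426 to 66784910). Bright and dim genes are mixed within it, since Scn3a, Scn2a and Scn9a were at or above 200 in all pools and Scn1a and Scn7a in none. The RefSeq promoter table holds windows for Scn2a, Scn1a, Scn9a and Scn7a, and the 100 bases before the annotated start of each are shown because these paralogs of 1 chromosomal group differ so widely in signal. CpG dinucleotides, which are often methylated in silent promoters, are in capitals. The windows are chr2:65668586-65668685 (plus strand) for Scn2a, at the more downstream of its 2 listed starts, chr2:66440838-66440937 (minus strand) for Scn1a, chr2:66634963-66635062 (minus strand) for Scn9a and chr2:66784911-66785010 (minus strand) for Scn7a.
Scn2a: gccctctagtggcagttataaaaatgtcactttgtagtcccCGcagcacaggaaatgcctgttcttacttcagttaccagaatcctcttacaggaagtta
Scn1a: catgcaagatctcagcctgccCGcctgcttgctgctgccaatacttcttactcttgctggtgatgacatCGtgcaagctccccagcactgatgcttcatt
Scn9a: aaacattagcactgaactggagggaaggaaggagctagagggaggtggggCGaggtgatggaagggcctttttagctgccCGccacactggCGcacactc
Scn7a: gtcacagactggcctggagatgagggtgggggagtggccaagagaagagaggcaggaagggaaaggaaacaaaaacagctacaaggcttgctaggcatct
Over the full 250 bases before the start, Scn2a held 9 CpG, Scn9a 5, Scn1a 4 and Scn7a 3. The other listed start of Scn2a held 2. A comparison of CpG between bright and dim members is void, because 29 of the 38 genes (76.3%) have a window, under the 80% needed.

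The sodium channel beta subunits gave the brightest member of all. Scn3b, which is expressed early in the nervous system, read 4981, 3984 and 4212 (left) against 4470, 4351 and 4260 (right) (1435767_at), above the range of the next gene, Cacna1b. The sides overlapped, with a log2 R/L of -0.00 ± 0.14 (SD, n = 3) and a 95% interval of -0.30 to 0.30. Its second probe set, 1426328_a_at, gave 568 to 904 and a ratio of -0.02 ± 0.31. Scn2b was above the limit at 395 to 518 with its brightest probe set. Scn4b, which supports resurgent current in fast-firing neurons, stayed at 49.1 or less, although it neighbours Scn2b on chromosome 9.

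Nalcn, the leak channel, was covered by 2 probe sets. The brighter, 1457423_at, read 881.6, 808.1 and 738.5 (left) against 840.9, 821.6 and 745.9 (right). Both pools of embryo 1 read higher than those of embryo 2, and these higher than those of embryo 3, whereas the sides overlapped. The embryos did not differ by limma (limma adjusted p = 0.85 between embryos). Log2 R/L was -0.01 ± 0.05 (SD, n = 3; 95% interval -0.44 to 0.42). Of its partners, Fam155a, an accessory subunit, read 1299 to 1627, Unc80, a scaffold, 190 to 529, and Unc79 stayed at 41.1 or less.

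Of the calcium channel alpha1 subunits, 5 of 9 genes were at or above 200 in all pools. Cacna1b (Cav2.2, N-type), which drives transmitter release in young synapses, had a mean signal of 2463, Cacna1e (Cav2.3, R-type) 950.7 and Cacna1a (Cav2.1, P/Q-type), the main release channel of mature neuromuscular junctions, 411.8. Cacna1c (Cav1.2, L-type) at 373 and Cacna1h (Cav3.2, T-type) at 377 overlapped with Cacna1a and with each other. Cacna1f, Cacna1g and Cacna1d passed 200 in some pools. Cacna1s (Cav1.1), the skeletal muscle channel, was at 49.0 or less and read 13.7 in the right pool of embryo 1, the pool with the high muscle marker sum.

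Cacna1b shows how far probe sets of a gene can part. The probe sets 1460608_at, 1436602_x_at and 1439612_at had means of 2463, 2429 and 1434, and the fourth, 1425812_a_at, a mean of 50.5. The brightest read 2889, 2467 and 2093 (left) against 2818, 2472 and 2041 (right). The sides agreed within each embryo, with a log2 R/L of -0.02 ± 0.02 (SD, n = 3; 95% interval -0.35 to 0.30), and the 3 bright probe sets had means between -0.06 and -0.00.

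The alpha2delta genes, of which Cacna2d1 and Cacna2d2 encode the targets of gabapentin, held 3 of the 6 brightest places. Cacna2d2 had a mean of 2320, Cacna2d3 1960 and Cacna2d1 1954, with overlapping ranges. Cacna2d4, known from the retina, did not pass 119. The log2 R/L was 0.19 ± 0.35 for Cacna2d2, -0.05 ± 0.30 for Cacna2d3 and 0.11 ± 0.25 for Cacna2d1 (SD, n = 3). Without embryo 1 these became 0.08, 0.12 and 0.23, so that Cacna2d3 turned.

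Among the beta subunits, Cacnb4 (mean 875) and Cacnb1 (719) were above the limit in all pools, and Cacnb2 in 4 of 6. Among the gamma family, Cacng7 (839) and Cacng4 (613) were above it in all pools, and Cacng2 (stargazin), Cacng5 and Cacng8 in some. All of these gamma subunits act on AMPA receptors. The skeletal muscle subunit Cacng1 was highest in the right pool of embryo 1 at 91.8, against 16.6 to 70.7 in the others. Cacng6, the second muscle-type gamma subunit, did not exceed 50.3. Of the pacemaker channels, Hcn3 read 165 to 297 and Hcn2 49.1 to 150.

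No channel probe set differed between the sides after adjustment. With limma, paired by embryo and adjusted by Benjamini-Hochberg over all 21853 tested probe sets, 0 of 56 passed, as did 0 of all tested (percentage called 0). At an unadjusted p under 0.05, 2 of 56 passed (3.57%), both of Scn9a and both lower on the right, against 3.4% of all tested probe sets. By the study's fold rule (the same direction in 3 embryos, a mean log2 beyond 0.58 and at least 2 embryos beyond it), 1 of 56 passed higher on the right, against 2.4% of all, and 0 of 56 higher on the left, against 1.55%. All 3 right pools lay above all 3 left pools for 2 members (2.98% of all tested) and below them for 1 (2.45%), which makes 5.36% of members in either direction against 5.43% of all. The sign was the same in 3 embryos for 9 members higher on the right, against 12.7% of all tested, and for 3 higher on the left, against 10.8%.

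The channel probe sets as a whole sat close to equality. The median log2 R/L over the 56 was 0.04, with embryo medians of 0.03, 0.07 and 0.02, and 0.07 without embryo 1, against 0.02 over all tested probe sets, and 30 had a mean above 0 and 26 below. Scaled by array medians instead, the members' median was -0.04 and that of all tested -0.07, so no direction is given for the family. A mean past 0.58 in either direction was seen for 3 of 56 (5.36%), against 11.8% of all tested.

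The spread over embryos was widest at low signals. For the 11 probe sets with a mean signal of 1000 or more, the median SD over embryos was 0.25 and the largest mean ratio 0.50 in size, and for the 14 with a mean under 200 these were 0.78 and 1.51. The corresponding median SDs over all tested probe sets were 0.25 and 0.82. The largest ratio, of the dim Cacna2d2 probe set 1451955_a_at (60.1, 9.56 and 243.8 in the left pools; 119.4, 160.9 and 170.1 in the right), was 1.51 ± 2.34 and changed sign between embryos.

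**Figure D2:**
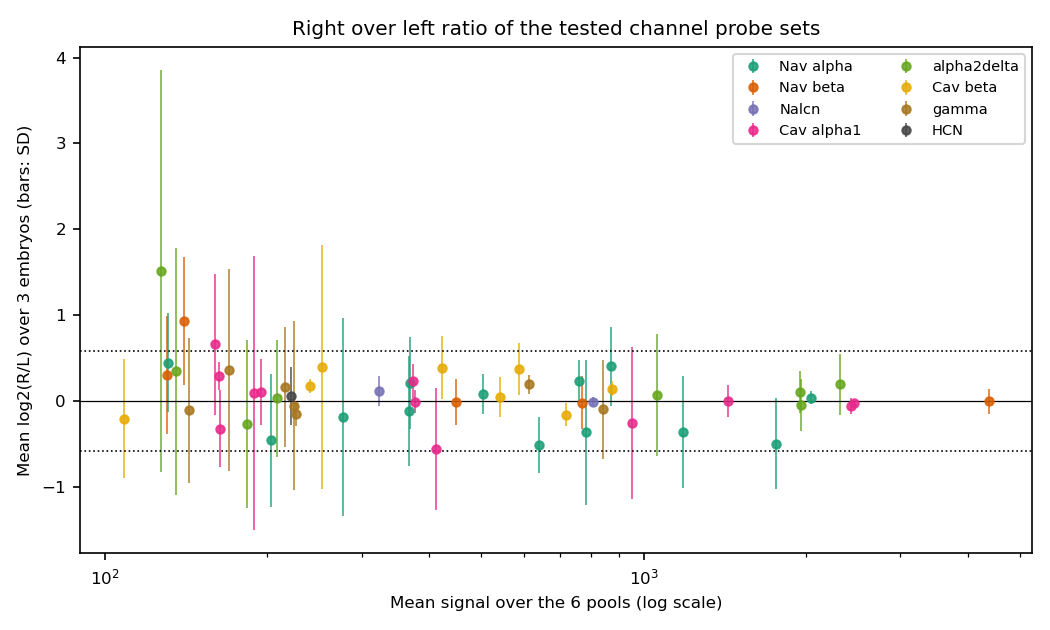
Mean log2(R/L) over 3 embryos (points; bars are SD) of the 56 tested channel probe sets against their mean signal over the 6 pools (log scale), coloured by class. Dotted lines mark 0.58 in each direction. The ratios reach furthest from 0 at mean signals under 200, where all 3 points past the dotted lines lie. At mean signals of 200 to 500, 500 to 1000 and 1000 or more, the largest ratios are 0.56, 0.51 and 0.50 in size.

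Scn9a had the lowest unadjusted p of the members. Its brightest probe set, 1457819_at, read 2468, 2299 and 1429 (left) against 1870, 1098 and 1405 (right). The right pool was lower in all 3 embryos, but by little in embryo 3, and the sides overlapped. Log2 R/L was -0.50 ± 0.53 (SD, n = 3; 95% interval from limma -0.98 to -0.01; limma adjusted p = 0.974). The mean was -0.55 without embryo 1 and -0.21 without embryo 2.

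The probe set 1442810_x_at of Scn9a separated the sides. It read 855.4, 867.1 and 556.7 (left) against 535.6, 522.5 and 507.8 (right), so that every right pool lay below every left pool. Log2 R/L was -0.51 ± 0.33 (SD, n = 3; 95% interval -1.02 to -0.00; limma adjusted p = 0.974), and -0.43 without embryo 1. Its name marks probes that may bind other transcripts. Under scaling by array medians, which lowers every mean ratio by the same amount, it passed the fold rule at -0.60. In that setting 431 of all tested probe sets passed on the left, against 338 in the main one.

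All 5 Scn9a probe sets had a mean ratio below 0, from -0.51 to -0.19, although 1442333_a_at and 1421660_at were higher on the right in embryo 1 and 1442809_at in embryo 3. Without embryo 1 the mean became -0.62 for 1442333_a_at, -0.75 for 1421660_at and -0.02 for 1442809_at. Probe sets of a gene read the same RNA pools and are not replicates. Of the 199 genes on the array with 5 tested probe sets, 31 (15.6%) had 1 sign throughout, as did 1 of the 2 such channel genes; the other, Cacna2d1, had 4 above 0 and 1 below. Of the 17 channel genes with 2 or more tested probe sets, 10 (58.8%) had 1 sign, against 46.6% of 4972 genes.

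Scn2b passed the fold rule with a dim probe set. The values of 1457144_at were 77.4, 76.1 and 143.2 (left) against 183.9, 209.8 and 151.5 (right). Every right pool lay above every left pool, yet a single value, that of the right pool of embryo 2, reached 200. Log2 R/L was 0.93 ± 0.74 (SD, n = 3; 95% interval -0.22 to 2.08; limma adjusted p = 0.974), and 0.77 without embryo 1, where it no longer passed.

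The other Scn2b probe sets did not follow it. The brightest, 1436134_at, read 438.4, 395.3 and 518.2 (left) against 415.3, 481.2 and 440.1 (right), with a log2 R/L of -0.01 ± 0.27 and a 95% interval of -0.56 to 0.54. The third, 1430648_at, read 82.1 to 239 and gave 0.30 ± 0.69, and 0.67 without embryo 1.

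**Figure D3:**
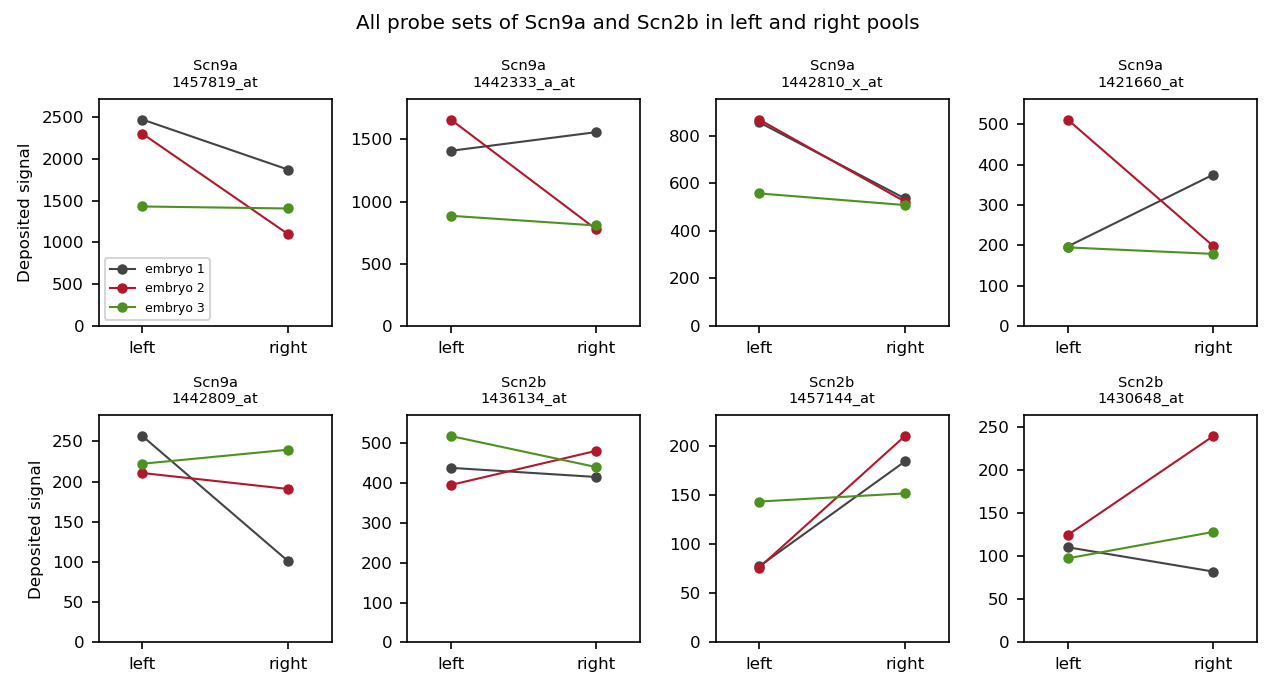
Deposited signal (linear axis from 0) of all 5 Scn9a and all 3 Scn2b probe sets in the left and right pool of each embryo, joined by a line for each embryo. In 1442810_x_at of Scn9a the 3 lines fall and in 1457144_at of Scn2b the 3 lines rise, whereas the other panels hold crossing or nearly level lines, or a fall that is slight in embryo 3.

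Cacng4, a member of the gamma family that acts on AMPA receptors, had the remaining tested probe set whose sides did not overlap. It read 589.3, 566.9 and 557.6 (left) against 714.4, 593.6 and 655.8 (right) (1450975_at). The ratio was small at 0.19 ± 0.11 (SD, n = 3; 95% interval -0.28 to 0.67; limma adjusted p = 0.974), and was 0.15 without embryo 1. The second Cacng4 probe set, 1455230_at, stayed below 200 (83.1 to 198.7) and was not tested. Its sides overlapped, with a ratio of 0.01 ± 0.76.

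Embryo 1 weighed heavily in the ratios of several probe sets. Without it, Cacnb2 1456401_at went from 0.40 to -0.37, Cacng7 1426336_at from -0.095 to 0.21 and Cacna1d 1427974_s_at from 0.09 to 0.97. Scn8a, Cacna1e and Cacna1a follow with their signals. Scn8a (1423515_at) read 784.5, 963.3 and 745.3 (left) against 313.4, 1151 and 732.6 (right), and its mean of -0.36 became 0.12 without embryo 1. Cacna1e (1436260_at) read 1654, 742.1 and 776.8 (left) against 707.1, 723.8 and 1100 (right), with means of -0.25 and, without embryo 1, 0.23. Cacna1a (1430408_at) read 567.6, 620.6 and 297.3 (left) against 236.4, 416.4 and 332.5 (right), with means of -0.56 and -0.21. In these Scn8a and Cacna1a probe sets the right pool of embryo 1 was the lowest of the 6. That pool held the high muscle and mesenchyme sums. In the Cacna1e probe set the left pool of embryo 1 was the high one. In Cacna1a 1430408_at embryo 2 was also lower on the right. The second tested Scn8a probe set, 1457412_at, went the other way in embryo 1, with 301.6 (left) against 443.3 (right). Its mean of -0.115 became -0.45 without embryo 1. The other Cacna1a probe sets, all below 200, were highest in the right pool of embryo 1, at 133, 137 and 105. The part of the muscle and mesenchyme content was not tested.

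The brightest Scn2a probe set had its highest signal in the right pool of embryo 1. This probe set, 1435933_at, read 1000, 478.6 and 632.9 (left) against 1900, 557.8 and 661.4 (right), highest in both pools of embryo 1. Log2 R/L was 0.40 ± 0.46 (SD, n = 3; limma adjusted p = 0.974), and 0.14 without embryo 1. The other Scn2a probe sets peaked in other pools. The similarly bright 1445259_at (mean 759) was highest in the right pool of embryo 3, at 1010. The left pool of embryo 2 was highest for 1427280_at, at 566, and the left pool of embryo 1 for 1427281_at, at 437. All 4 Scn2a probe sets had mean ratios above 0, from 0.08 to 0.40, and without embryo 1 they ran from -0.05 to 0.44. The other ratios with the lowest unadjusted p on the right belonged to Cacnb1 1440940_at (0.38 ± 0.30, and 0.24 without embryo 1), Cacna2d2 1451955_a_at and Cacnb4 1428928_at (0.39 ± 0.37, and 0.24 without embryo 1). The brightest Cacnb1 probe set, 1426108_s_at, was lower on the right in all 3 embryos (-0.16 ± 0.13), whereas 1425777_at gave 0.18 ± 0.08.

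The embryos were compared in the same way. The ranges of the 3 embryos did not overlap for 11 of 56 channel probe sets (19.6%), against 14.3% of all tested. They include the 3 bright Cacna1b probe sets, both of Nalcn and both of Scn3a. The first 5 were highest in embryo 1, and those of Scn3a in embryo 3. With limma, 0 of 56 passed an adjusted p under 0.05 between embryos, against 0.27% of all tested, and 4 (7.14%) an unadjusted p under 0.05, against 15.3%.

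The lowest of these were Scn2a 1435933_at, described above (limma adjusted p = 0.114), and the dimmer Nalcn probe set 1448083_at. The latter read 475.2, 291.9 and 162.7 (left) against 478.0, 364.8 and 164.8 (right) (limma adjusted p = 0.149). Without embryo 2, both passed the adjusted limit, at 0.00459 and 0.014, and so did 1442333_a_at of Scn9a, at 0.0407. The share of all tested probe sets that passed in that fit was not counted, so these calls cannot be set against the array. Cacna1d 1427974_s_at and Scn3a 1421705_at were the other 2 past the unadjusted limit, with limma adjusted p = 0.279 and 0.315.

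The summed signal of the motoneuron markers varied along with the embryo as well. It was 42740, 33232 and 24997 (left) against 42527, 29773 and 25078 (right). Of the 15 tested motoneuron probe sets, 1 passed an adjusted limma p under 0.05 between embryos, against 0.27% of all tested. An unadjusted p under 0.05 was reached by 5 of the 15, against 15.3%. The 1 that passed was that of peripherin, a large part of the sum, so the sum and peripherin are not separate observations. Peripherin (Prph, 1422530_at), an intermediate filament of neurons with long axons, read 23019, 15618 and 10514 (left) against 23486, 14011 and 10753 (right) (limma adjusted p = 0.03 between embryos). As for the bright Cacna1b and both Nalcn probe sets, both pools of embryo 1 were highest and both of embryo 3 lowest. Other channel probe sets had another order. Both pools of embryo 1 lay above the other 4 for 8 of 56 (14.3%), against 9.93% of all tested. Those of embryo 2 did so for 6 (10.7%, against 8.78%) and those of embryo 3 for 8 (14.3%, against 13.4%). The part of motoneuron content or of embryo stage in the channel signals was not tested.

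**Figure D4:**
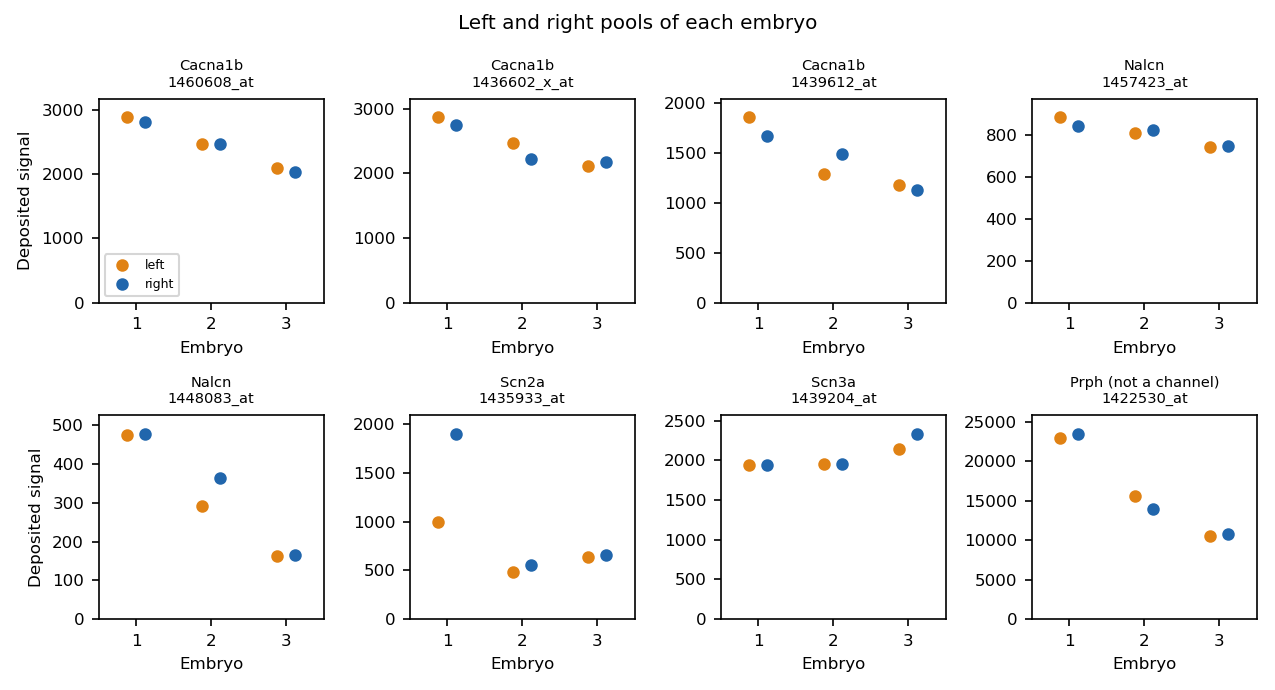
Deposited signal (linear axis from 0) in both pools of each embryo (orange, left; blue, right) for 3 Cacna1b, 2 Nalcn, 1 Scn2a and 1 Scn3a probe sets and for peripherin (Prph). The points of an embryo mostly lie close together, least so for embryo 1 in Scn2a, and embryo 1 is highest in all panels but that of Scn3a. Of all 56 tested channel probe sets, both pools of embryo 1 were highest for 8, and both of embryo 3 for 8.

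The proteins that work with these channels were read in the same pools. Of 14 measured sodium channel partners, 45 probe sets were tested, and 0 passed the fold rule higher on the right (2.4% of all tested) and 2 higher on the left (1.55%), with a median log2 R/L of 0.02. Nedd4, a ubiquitin ligase that removes sodium channels, read up to 16599, and ankyrin-G (Ank3), which anchors them at the initial segment, 4170 to 4795 with its brightest probe set. The 2 that passed were probe sets of Fgf11 and Fgf12, intracellular FGFs that bind sodium channel tails. Fgf12 1436432_at read 444, 533 and 511 (left) against 121, 132 and 494 (right) (-1.31 ± 1.10, SD; limma adjusted p = 0.974), and was close to equal in embryo 3. Fgf11 1421793_at gave -0.65 ± 0.19. A brighter probe set of each gave 0.03 ± 0.40 for Fgf11 and -0.29 ± 0.52 for Fgf12, the latter 0.01 without embryo 1.

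For 11 measured calcium channel partners, among them Rem2, a GTPase that inhibits the channels, 0 of 13 tested probe sets passed the fold rule in either direction and the median was 0.05, and 0.19 without embryo 1. For the 5 measured NALCN and HCN partners, 0 of 3 passed, with a median of -0.17, and -0.10 without embryo 1. Of 22 genes of calcium release and clearance, 1 of 27 tested probe sets passed on the right (2.4% of all tested) and 0 on the left (1.55%), with a median of 0.08. It belonged to Ryr3, a calcium release channel of the endoplasmic reticulum, which read 563, 309 and 126 (left) against 912, 612 and 169 (right) (1427427_at; 0.70 ± 0.28, SD; limma adjusted p = 0.974). It was higher on the right in each embryo, and the sides overlapped.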

How the data were processed

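Left and right pools of 3 embryos were hybridised to 6 arrays. The deposited values are signal intensity values on a linear scale, which per the labels and methods the authors made with MAS5 in Affymetrix Expression Console (version not given in the sources used here). Each array was scaled to a 2% trimmed mean of 500. No read depth applies, and the number of arrays limits the precision.

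Genes come from the platform annotation given with the table: 34945 probe sets have 1 gene, 932 several and 9160 none. Control probe sets (64) were left out. Signals were taken to log2 with no constant. Probe sets with a highest signal of 200 or more were tested with limma 3.58.1 (R 4.3.3) on side with embryo as a block, with an intensity trend and Benjamini-Hochberg adjustment, after tests on simulated data. The embryo pairs the pools by design; same-embryo deviations correlated at 0.241, 0.215 and 0.495. An exact sign-flip test of 3 pairs cannot go below 0.25. The study's filter on present calls was not repeated here. Members and lists were chosen with earlier results of these data known. Named are the 4 brightest genes of each class, probe sets past the fold rule, those with the 5 smallest p or 3 largest ratios in each direction, the 5 smallest p between embryos, and genes whose probe sets differ over 10-fold around the limit; other members named were chosen after their values were seen. Alternatives were other scalings, limits, probe set choices and fits, and leaving out each embryo.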

Additional observations from a re-analysis of the deposited data

How the results depend on the processing

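Of the 88 values computed for the 6 main results over all settings, main values included, the count of probe sets that differed between sides after adjustment was 0 under every alternative run, though at an unadjusted p under 0.05 it ranged from 0 (quantile normalization, gene means and no replicate block) to 3. Without the embryo pairing in limma (no replicate block) the adjusted count was 0, as in the paired fit, and unadjusted calls went from 2 to 0. The fold rule uses ratios within embryos in every setting, so its count of 1 could not change there. Higher on the right by the fold rule were 5 probe sets of 89 with no signal limit (2805 of all 45037), and 0 with a highest signal of 500 or more, a mean signal of 200 or more, gene means, a 2-fold limit, or the limit passed in all 3 embryos. Higher on the left was 1 with median scaling (431 of all tested) and 1 with no limit (1696 of all). The median log2 ratio was -0.042 with median scaling, -0.0099 with a highest signal of 500 or more, -0.0036 with a mean of 200 or more and 0.103 with gene means. Genes at or above 200 in all pools were 12 with gene means. The cause of these moves was not tested, beyond the members that each limit removes. Leaving out one replicate gave 0 to 3 probe sets higher on the right, 0 to 1 higher on the left and medians of 0.0067 to 0.103. It gave 0 to 3 calls between embryos, for which the share of all tested probe sets was not counted. On the right, Scn2b was lost without embryo 1 or 2; the 3 without embryo 3 were Scn2b, Cacna1c and Cacng7, and the left call was Scn9a, beside 986 right and 607 left calls over all tested probe sets in that setting. Of the ratios of 37 named probe sets, 406 of the recomputed values kept within their spread, 5 moved (all median scaling) and 1 fell short of the rule (Scn2b, 0.77 without embryo 1). Many of the 406 could not move. Signal limits, the probe set filter and fits without block or trend leave a probe set's own ratio as it was. Values within the spread also include changes of sign, such as Scn8a 1423515_at, from -0.36 to 0.12 without embryo 1. The 3 embryos and dim signals limit what can be seen.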
